A study of Homo sapiens with 6 samples.

Results

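The D cyclins, the kinases they switch on, the inhibitors that hold these kinases back and the retinoblastoma gene RB1 were followed in WPMY-1 cells with and without a hairpin against CAVIN1. The set was defined by name as 10 genes (CCND1, CCND2, CCND3, CDK4, CDK6, CDKN1B, CDKN2A, CDKN2B, CDKN2C and RB1) of the 33117 rows in the expression table, and all 10 were found and passed the filter on low values. WPMY-1 is an immortalised line of stromal cells from normal human prostate, grown in medium with 5% serum. The shCtrl group carried the pLKO1 control plasmid and the shCAVIN1 group a lentiviral short hairpin RNA against CAVIN1, each with 3 libraries of total RNA. Virus was packaged in HEK293T cells, a human embryonic kidney line, transduced cells were selected with puromycin to give stable knockdown clones, and the knockdown rests on 1 hairpin. The series' design text calls the libraries of a group independent biological replicates, but no source says whether they came from separate transductions or clones. The p-values therefore measure library-to-library spread, which may be technical.

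As background, cells leave the G1 phase when D cyclins bind CDK4 or CDK6 and these kinases phosphorylate RB1, a pocket protein that otherwise holds back the E2F transcription factors and the S phase genes they drive. The INK4 proteins (p16 from CDKN2A, p15 from CDKN2B, p18 from CDKN2C) bind CDK4 and CDK6 and keep D cyclins off them, and p27 from CDKN1B inhibits cyclin E with CDK2. WPMY-1 cells were immortalised with the large T antigen of SV40, a viral protein that binds RB1 and its relatives, so the pathway below RB1 is not that of an unmodified stromal cell.

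The reagent and a short stretch of it found in 3 of the 10 genes are shown first because the groups differ by this hairpin. Capitals mark the bases that pair with bases 2 to 8 of the antisense strand, the stretch that guides target choice of small RNAs, and the members' sequences are the 21 bases at each gene's own copy of that stretch.
Hairpin target in CAVIN1: gtggaggttgaggAGGTTATt
CCND2: tttgaatgcaattAGGTTATg
CDKN2C: aggactgcgctgcAGGTTATg
RB1: atggagtattgggAGGTTATa
In CAVIN1 the 7 bases lie in the coding part of exon 2 of 2, at chromosome 17, 42405222 to 42405228 (GRCh38, minus strand). In CCND2 they lie in the 3′ untranslated region at chromosome 12, 4305314 to 4305320 (plus strand). In RB1 they lie in the coding sequence of exon 3 at chromosome 13, 48342601 to 48342607, and in CDKN2C in the coding sequence across the junction of the last 2 exons. The other 7 members hold no copy of AGGTTAT in their protein-coding transcripts, against a copy in 18.2% of 11979 tested protein-coding genes (transcripts of GENCODE 29). The longest stretch of the hairpin target found in a member was 9 bases (CCND1, CDK6 and RB1) and in CCND2 it was 7 bases, beside a median of 8 bases over those genes. Of the 3 members with a copy, CCND2 fell, CDKN2C rose and RB1 did not pass the test, and the part of such matches in the results was not tested.

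CAVIN1, listed under its older symbol PTRF, had levels of 329.6, 346.9 and 330.3 FPKM (fragments per kilobase of transcript, scaled to the mapped fragments of the library) in shCtrl. With the hairpin it had 133.9, 138.8 and 150.2 FPKM, well below every control value. All 8 stromal and fibroblast markers checked had a mean of at least 1 FPKM, as did 3 of 5 smooth muscle markers. The summed level of the stromal markers was 790 to 933 FPKM in shCtrl and 547 to 570 in shCAVIN1. FN1, COL1A2, COL3A1 and THY1 were lower in every shCAVIN1 library, and VIM, COL1A1 and PDGFRB overlapped between groups. S100A4 was higher in every shCAVIN1 library (2.61 to 3.36 and 22.2 to 22.7 FPKM). Of the other cell types, 2 of 6 epithelial markers (KRT8 and KRT18) and 1 of 4 leukocyte markers (CD68) reached a mean of 1 FPKM, none of 3 endothelial markers did, and KLK3 and CD3E were listed at 0 in every library. The epithelial sum was 397 to 431 FPKM in shCtrl and 240.5 to 255 in shCAVIN1, nearly all of it KRT18 (374 to 405 and 211 to 226 FPKM), while KRT8 was higher in every shCAVIN1 library (22.8 to 25.0 and 28.4 to 28.9 FPKM). The smooth muscle sum was 697 to 766 and 347 to 373 FPKM, most of it TAGLN (649 to 713 and 332 to 358 FPKM). CNN1 was also lower in every shCAVIN1 library (43.6 to 48.1 and 4.42 to 5.24 FPKM), while ACTA2 was higher (4.63 to 5.20 and 9.70 to 10.2 FPKM). The leukocyte sum was 5.99 to 6.97 and 9.06 to 9.61 FPKM. These sums moved with the group, and their part in the results was not tested. The libraries summed to 758837 to 1043840 FPKM. The library of shCtrl replicate 2 stood apart, with the abundant small nuclear RNA RN7SK listed at 0 against 106035 to 151555 FPKM in the others. Values below are FPKM, errors are SD over 3 libraries, and in bulk RNA fewer cells with a transcript and less transcript per cell cannot be told apart.

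Of the 10 members, 3 rose (CCND3, CDK4 and CDKN2C), 3 fell (CCND2, CDK6 and CDKN2B) and 4 did not pass the test (CCND1, CDKN1B, CDKN2A and RB1) in the shCAVIN1 libraries. The test was limma on log2(FPKM + 0.5) with Benjamini-Hochberg adjustment over 13941 tested genes and a threshold of 0.05. Over all tested genes 55.5% passed it, 27.3% higher and 28.2% lower, so the members' share called is close to that of the table. Of the genes called, 49.2% were higher. After rescaling to TPM, a unit in which every library has the same sum, 64.5% of the genes called were higher, 59.2% with the most abundant rows left out of that sum, and the median log2 difference of all tested genes moved from -0.02 to 0.09. The groups did not overlap for 7 of 10 members and for 64.6% of tested genes. The size of the falls set 2 members apart in description: CCND2 and CDK6 fell at least 2-fold on this scale, as did 2.89% of tested genes, or 5.54% in either direction. No member rose that much. The median log2 difference of the members was 0.02, beside -0.02 over all tested genes.

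**Figure D1:**
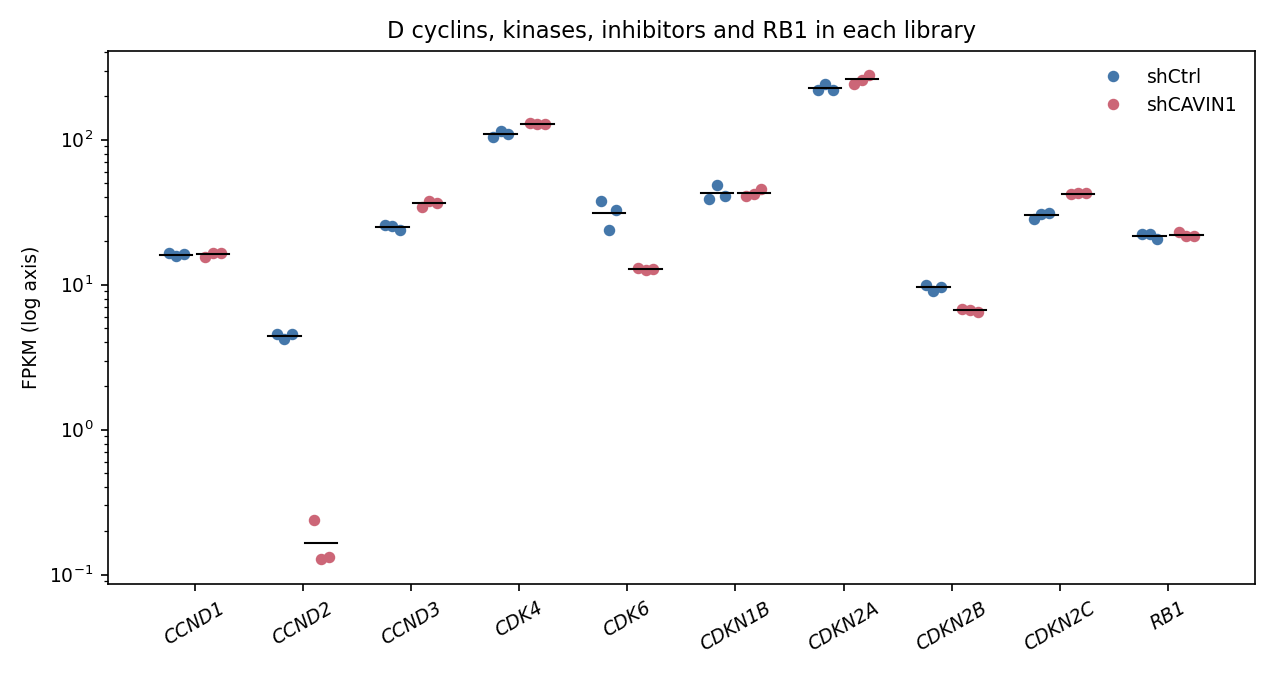
Level of each of the 10 genes in FPKM on a log axis, with 1 point per library, shCtrl in blue, shCAVIN1 in red, and bars at the group means. The shCAVIN1 points of CCND2 lie between 0.127 and 0.239 FPKM, below all shCtrl points, while those of CCND1, CDKN1B and RB1 overlap between groups.

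Among the D cyclins, CCND2 fell to a few percent of its control level, CCND3 rose and CCND1 did not pass the test. CCND2 encodes cyclin D2 and lies on chromosome 12 at 4273772 to 4305350 (plus strand). It was at 4.54, 4.21 and 4.56 FPKM in shCtrl and at 0.239, 0.127 and 0.133 FPKM in shCAVIN1. The lowest shCtrl library thus stood far above the highest shCAVIN1 library. The mean fell from 4.44 ± 0.196 to 0.166 ± 0.0627 FPKM, which is 3.75% of control, or 26.7-fold lower. On the log2(FPKM + 0.5) scale the difference was -2.89 (SE 0.0922, limma adjusted p = 1.01e-05), and with a pseudocount of 0.1 it was -4.11, since the added constant understates changes of low genes. It was number 95 among the falls of all tested genes. The shCAVIN1 mean lay below the 0.5 FPKM of the filter on low values, so CCND2 passed that filter only through shCtrl. By an exact two-sided permutation test p = 0.1, the smallest that 3 libraries against 3 allow, and the same value holds for each member whose groups do not overlap. In GENCODE 29 it overlaps the antisense gene CCND2-AS1 and, on its own strand, AC008012.1. Whether the counting used strand is not given in the sources used here.

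CCND3, which encodes cyclin D3, lies on chromosome 6 at 41934933 to 42050357 (minus strand). Its levels were 25.9, 25.3 and 23.7 FPKM in shCtrl and 34.6, 38.1 and 36.7 FPKM in shCAVIN1. Every shCAVIN1 library was above every shCtrl library, and the mean rose 1.46-fold, from 25.0 ± 1.12 to 36.5 ± 1.73 FPKM (log2 difference 0.54, SE 0.0542, limma adjusted p = 4.08e-04).

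CCND1, which encodes cyclin D1 (chromosome 11, 69641087 to 69654474, plus strand), was at 16.4, 15.8 and 16.2 FPKM in shCtrl and at 15.5, 16.5 and 16.5 FPKM in shCAVIN1. The groups overlapped. The log2 difference was 0.00 (SE 0.0436) with a 95% interval from -0.10 to 0.11 (limma adjusted p = 0.947).

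**Figure D2:**
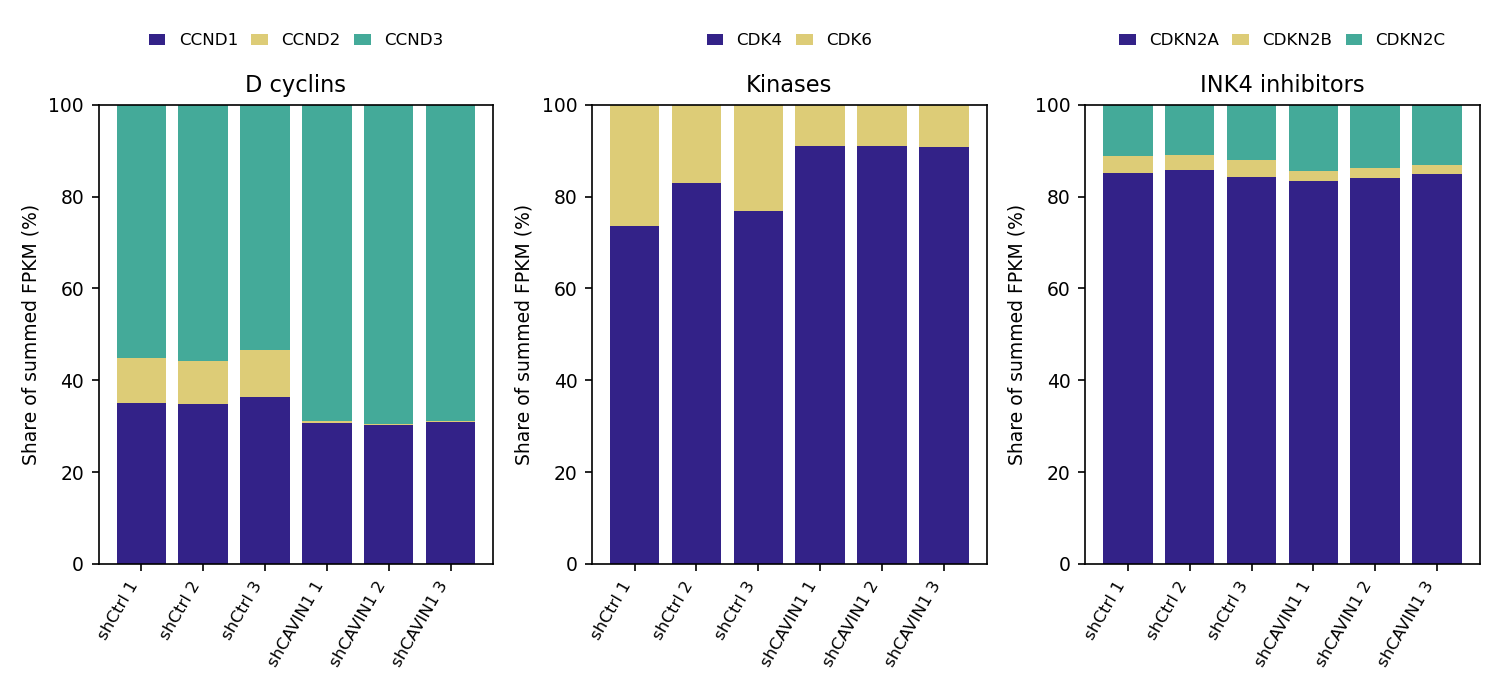
Share of each gene in the summed FPKM of its class (D cyclins, kinases, INK4 inhibitors), as stacked bars from 0 to 100%, 1 bar per library. The CCND2 band narrows from between 9.29 and 10.3% to at most 0.474%, and the CDK6 band from between 17.1 and 26.4% to about 9%.

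A scaling of the whole library cancels in shares within a library. Cyclin D3 transcripts made up 54.8% ± 1.31 of the summed D cyclin FPKM in shCtrl and 69.0% ± 0.457 in shCAVIN1. The CCND2 share went from 9.75% ± 0.484 to 0.319% ± 0.135, and that of CCND1 from 35.4% ± 0.843 to 30.6% ± 0.401. For each of the 3 shares the groups did not overlap. The sum of the 3 D cyclins was 46.8, 45.3 and 44.4 FPKM in shCtrl and 50.3, 54.7 and 53.4 FPKM in shCAVIN1. So the summed level was not lower where CCND2 was lowest. These are descriptions of sums over chosen genes, with no test.

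The kinases moved in opposite directions, with CDK6 lower and CDK4 slightly higher. CDK6 (chromosome 7, 92604921 to 92836594, minus strand) was at 37.5, 23.7 and 32.9 FPKM in shCtrl and at 13.0, 12.5 and 12.9 FPKM in shCAVIN1. The shCtrl libraries were spread widely, with replicate 2 lowest, and all 3 lay above the tight shCAVIN1 values. Mean CDK6 was 31.4 ± 7.06 FPKM in shCtrl and fell to 12.8 ± 0.235 FPKM, 40.8% of control (log2 difference -1.23, SE 0.160, limma adjusted p = 0.00109). Without shCtrl replicate 2, the library that stands apart, the difference was -1.42 (limma adjusted p = 1.08e-04). Without shCtrl replicate 1 it was -1.09 (limma adjusted p = 0.0022) and without replicate 3 it was -1.19 (limma adjusted p = 0.00608). AC002454.1, a non-coding gene on the opposite strand that overlaps the start of CDK6, was at 2.72, 1.28 and 1.26 FPKM in shCtrl and at 0.114, 0 and 0.0979 FPKM in shCAVIN1. AC002454.1 fell too (log2 difference -1.93, SE 0.256, limma adjusted p = 0.00121), and it passed the filter on low values only through shCtrl. Without knowledge of strand its fragments and those of CDK6 cannot be told apart where they overlap.

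CDK4 (chromosome 12, 57747727 to 57756013, minus strand) was at 104.5, 115.0 and 109.1 FPKM in shCtrl and at 130.8, 127.7 and 128.0 FPKM in shCAVIN1. The groups did not overlap, and the mean rose 1.18-fold, from 110 ± 5.27 to 129 ± 1.73 FPKM (log2 difference 0.23, SE 0.0486, limma adjusted p = 0.00741). This call did not hold when the libraries were rescaled to TPM, at 0.36 with limma adjusted p = 0.183. The gene overlaps TSPAN31 and MARCH9 on the opposite strand, at 8.95 to 10.4 and 4.25 to 4.59 FPKM in group means, and it has a processed pseudogene, CDK4P1. Processed pseudogenes are also annotated for CCND2 (CCND2P1) and CCND3 (CCND3P1 and CCND3P2), so a part of the fragments of these 3 genes is uncertain.

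CDK4 exceeded CDK6 by 2.78-, 4.86- and 3.32-fold in the shCtrl libraries and by 10.1-, 10.2- and 9.90-fold in the shCAVIN1 libraries. The CDK6 share of the kinase sum was 26.4, 17.1 and 23.2% in shCtrl and 9.01, 8.94 and 9.18% in shCAVIN1. The kinase sum itself overlapped between the groups, at 141 ± 1.91 and 142 ± 1.88 FPKM. Unlike the shares, this sum depends on how the libraries are scaled, and the rise of CDK4 lost its call in TPM.

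**Figure D3:**
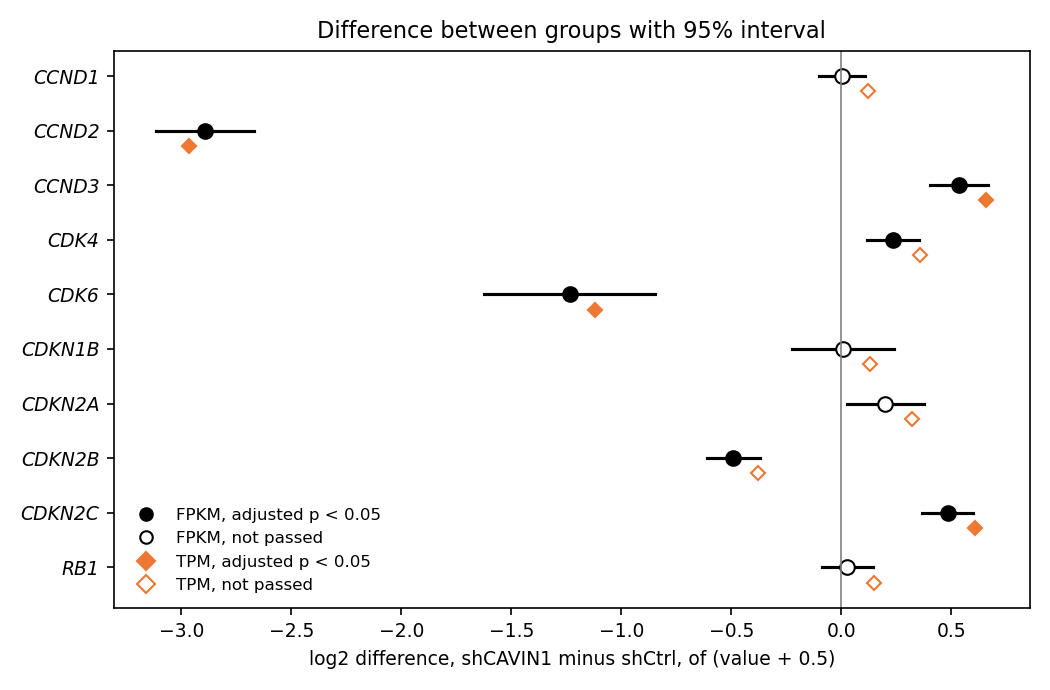
Log2 difference (shCAVIN1 minus shCtrl) of each gene on the log2(value + 0.5) scale. Circles with 95% intervals are FPKM and diamonds are values rescaled to TPM, filled where the adjusted p is under 0.05. CCND2 (-2.89) and CDK6 (-1.23) lie farthest from 0, and CDK4 and CDKN2B are filled as circles but not as diamonds.

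The INK4 inhibitors went different ways: CDKN2C rose, CDKN2B fell, and CDKN2A was higher in each shCAVIN1 library without passing the test. CDKN2C (chromosome 1, 50960745 to 50974633, plus strand) was at 28.5, 30.9 and 31.4 FPKM in shCtrl and at 41.9, 42.6 and 43.0 FPKM in shCAVIN1. The groups were well apart, and the mean rose 1.40-fold, from 30.3 ± 1.53 to 42.5 ± 0.558 FPKM (log2 difference 0.48, SE 0.0476, limma adjusted p = 3.68e-04).

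CDKN2B (chromosome 9, 22002903 to 22009363, minus strand) was at 10.01, 9.09 and 9.62 FPKM in shCtrl and at 6.79, 6.70 and 6.50 FPKM in shCAVIN1. The groups did not overlap, and mean CDKN2B fell from 9.57 ± 0.462 to 6.66 ± 0.151 FPKM, or 69.7% of control (log2 difference -0.49, 95% interval -0.61 to -0.37, limma adjusted p = 4.22e-04). After rescaling to TPM the difference was -0.38 and missed the threshold (limma adjusted p = 0.0801). CDKN2B-AS1, the long non-coding RNA that runs across CDKN2B on the opposite strand, went the other way, from 2.77 ± 0.221 to 3.62 ± 0.282 FPKM (log2 difference 0.33, limma adjusted p = 0.0135). Because the use of strand in counting is not given, fragments of the pair cannot be told apart.

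CDKN2A lies beside CDKN2B (chromosome 9, 21967753 to 21995301, minus strand) and was the most abundant member. It was at 219.0, 241.9 and 219.5 FPKM in shCtrl and at 243.8, 259.1 and 279.7 FPKM in shCAVIN1. The highest shCtrl library came within 2 FPKM of the lowest shCAVIN1 library. The means were 227 ± 13.1 and 261 ± 18.0 FPKM (log2 difference 0.20, SE 0.0718, 95% interval 0.03 to 0.37, limma adjusted p = 0.0539). The call was thus missed narrowly, and it passed without shCtrl replicate 2 (0.25, limma adjusted p = 0.0212). It did not pass without shCtrl replicate 1 or 3 (0.18 in both, limma adjusted p = 0.123 and 0.154). Nor did it after rescaling to TPM (0.32, limma adjusted p = 0.269). The locus gives p16 from one start and the p53 regulator ARF from another with a different reading frame, and a value per gene cannot separate them.

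CDKN2C over CDKN2B went from 3.17 ± 0.287 to 6.38 ± 0.225, with no overlap between groups. CDKN2A held 84.3 to 85.8% of the summed FPKM of the 3 genes in shCtrl and 83.3 to 85.0% in shCAVIN1, so its share overlapped between groups. The sum of these 3 INK4 genes, which leaves out CDKN2D, over the kinase sum was 1.81, 2.03 and 1.84 in shCtrl and 2.03, 2.199 and 2.34 in shCAVIN1. Replicate 2 of shCtrl almost reached the lowest shCAVIN1 value there.

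CDKN1B and RB1 did not pass the test. CDKN1B, the gene of p27 (chromosome 12, 12715058 to 12722371, plus strand), was at 38.7, 49.0 and 40.6 FPKM in shCtrl and at 41.1, 42.0 and 45.4 FPKM in shCAVIN1. The highest value of all was again in shCtrl replicate 2, and the groups overlapped. The log2 difference was 0.01 (SE 0.0949), with a 95% interval from -0.22 to 0.24, and 0.11 without that library (limma adjusted p = 0.136).

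RB1 (chromosome 13, 48303726 to 48599436, plus strand) was at 22.2, 22.2 and 20.7 FPKM in shCtrl and at 23.0, 21.6 and 21.8 FPKM in shCAVIN1. The groups overlapped, and the log2 difference was 0.03 (SE 0.0477) with a 95% interval from -0.09 to 0.14 (limma adjusted p = 0.657). Kinase activity and RB1 phosphorylation were not measured.

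FPKM is per transcript length, so levels can be ordered. In shCtrl the order of mean FPKM ran from CDKN2A (227) through CDK4 (110), CDKN1B (42.8), CDK6 (31.4), CDKN2C (30.3), CCND3 (25.0), RB1 (21.7), CCND1 (16.1) and CDKN2B (9.57) to CCND2 (4.44). Only CDK6 and CDKN2C overlapped as neighbours in that order. In shCAVIN1, CDK6 (12.8) had moved below CCND1 (16.2), and CDKN1B (42.8) and CDKN2C (42.5) were the only neighbours whose libraries overlapped. CCND2 was last in both groups.

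Promoter windows (250 bases before to 50 after a start, RefSeq, GRCh38.p14) were matched for 8 of 10 members, 14 windows in all, and not for CCND1 and CCND2. The only RB1 window, at 48476200 to 48476499, lies at a start inside the gene. The 250 bases upstream are shown for the members that fell and have a window, at the outermost start of CDK6, chr7:92836574-92836823, and the start of CDKN2B, chr9:22009306-22009555, both on the minus strand, with GGGCGG on either strand (the GC box bound by SP1) in capitals.
CDK6: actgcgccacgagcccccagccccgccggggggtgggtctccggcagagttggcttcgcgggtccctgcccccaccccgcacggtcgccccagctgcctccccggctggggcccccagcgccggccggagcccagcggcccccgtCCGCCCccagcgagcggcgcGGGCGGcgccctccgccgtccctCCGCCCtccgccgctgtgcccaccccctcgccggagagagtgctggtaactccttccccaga
CDKN2B: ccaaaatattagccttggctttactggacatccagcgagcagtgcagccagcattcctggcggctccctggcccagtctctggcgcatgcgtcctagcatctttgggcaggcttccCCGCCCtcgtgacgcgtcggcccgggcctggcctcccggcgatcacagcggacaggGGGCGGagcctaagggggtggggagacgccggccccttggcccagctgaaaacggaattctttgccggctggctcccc
The CDK6 stretch holds 3 GC boxes and that of CDKN2B holds 2. Over the members, 9 of 14 windows hold GGGCGG, as do 45.0% of 35116 windows of all genes, and windows of members that rose (CCND3, CDK4, CDKN2C) hold it too. The E2F motifs TTTCCCGC and TTTGGCGC, searched on both strands, were in none of the 14 windows and in 2.27% of all windows.

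The rest of the pathway was taken from 7 lists with 89 genes, all of them matched to a row and tested, of which 63 passed the test, beside 55.5% of all tested genes. The text names up to 4 genes per list by lowest adjusted p, and further ones were chosen after their values were seen. After rescaling to TPM, 23 of the 89 passed, beside 24.5% of all tested genes, and 16 of the 27 genes chosen by lowest adjusted p kept their call. Under each of the other 15 alternatives, TPM without the most abundant rows in the sum among them, all 27 kept it. The 11 genes whose call was lost kept their direction in TPM.

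**Figure D4:**
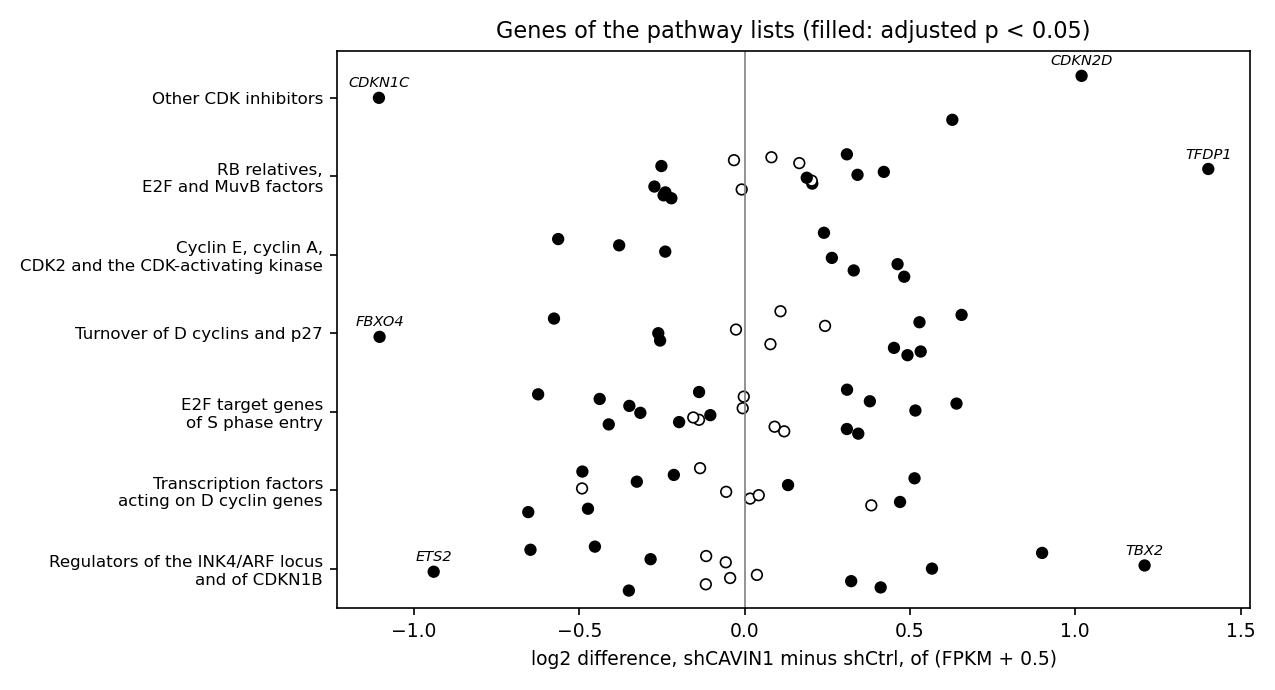
Log2 difference (shCAVIN1 minus shCtrl, FPKM + 0.5) of each gene in 7 pathway lists, 1 circle per gene, filled where the adjusted p is under 0.05, with the outermost genes named. TFDP1 (1.40) lies farthest to the right and CDKN1C (-1.11) farthest to the left.

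The remaining CDK inhibitors all changed, 2 higher and 1 lower. CDKN1A, the p21 inhibitor, rose from 31.5 ± 2.15 to 48.8 ± 0.377 FPKM. CDKN2D, the fourth INK4 inhibitor p19, rose 2.09-fold, from 5.99 ± 1.19 to 12.5 ± 0.792 FPKM. CDKN1C, the p57 inhibitor, fell from 6.41 ± 0.672 to 2.73 ± 0.587 FPKM, and limma adjusted p lay between 2.44e-04 and 0.00103 for the 3 genes. All 3 calls held after rescaling to TPM.

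Among the relatives of RB1 and the factors they bind, 6 of 16 rose and 5 fell (median 0.12). TFDP1, the DP1 partner through which E2F factors bind DNA, rose 2.66-fold, from 41.3 ± 2.93 to 110 ± 0.768 FPKM (log2 difference 1.40, SE 0.0571, limma adjusted p = 1.92e-05). E2F8, a repressive E2F, rose 1.37-fold, and LIN54, the DNA-binding subunit of the MuvB complex, rose 1.25-fold. The 5 that fell were RBL1 and RBL2, the pocket protein relatives of RB1, with E2F1, E2F3 and TFDP2, all to between 81.4 and 85.5% of control. So RBL1 (24.6 ± 0.604 to 21.0 ± 0.255 FPKM) and RBL2 fell slightly while RB1 did not pass the test. In TPM 3 rose and 0 fell, with the calls of RBL1 (-0.10 in TPM, -0.22 in FPKM) and LIN54 (0.43 and 0.31) lost. With the most abundant rows left out of the TPM sum 8 rose and 4 fell, with RBL1 among those that fell (-0.15).

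In the list of cyclin E, cyclin A, CDK2 and the kinase that activates CDKs, all 8 genes passed, 5 higher and 3 lower (median 0.25). Cyclin E1 (CCNE1) rose from 1.89 ± 0.228 to 2.83 ± 0.132 FPKM and cyclin A2 (CCNA2) from 63.7 ± 7.62 to 87.6 ± 0.673 FPKM, and CCNE2, CDK2 and MNAT1 rose 1.26-, 1.20- and 1.18-fold. CDK7 and its partner cyclin H (CCNH), which together activate CDKs, fell to 66.7% and 76.5% of control, and the phosphatase CDC25A to 84.2%. In TPM 1 gene rose and 0 fell, with the calls of CCNA2 (0.58 in TPM, 0.46 in FPKM), CCNH (-0.26 and -0.38) and CDK7 (-0.45 and -0.56) lost.

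In the list of turnover of D cyclins and p27, 5 of 13 rose and 4 fell (median 0.11). SKP2, the receptor that brings p27 to the ubiquitin ligase SCF, rose from 51.1 ± 2.11 to 72.1 ± 0.997 FPKM, and its cofactor CKS1B rose 1.44-fold. FBXO4, a receptor described for cyclin D1, fell from 5.93 ± 0.358 to 2.49 ± 0.147 FPKM (log2 difference -1.10, limma adjusted p = 6.70e-05). The ligase scaffold CUL4A rose 1.45-fold and its adaptor DDB1 fell to 66.8% of control, and the latter call was lost after rescaling to TPM (-0.45, against -0.58 in FPKM). SKP1 and CRYAB also rose, and RBX1 and FBXO31 also fell. CRYAB was at 0.331 ± 0.114 and 0.814 ± 0.211 FPKM, so it passed the filter on low values only through shCAVIN1. With a filter at a mean of 2 FPKM, 4 of 12 rose and 4 fell. In TPM 4 rose and 1 fell.

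Among 20 E2F target genes of S phase entry, 6 rose and 8 fell, and the median was -0.05. RRM2, a subunit of ribonucleotide reductase, rose from 78.0 ± 1.69 to 122 ± 4.74 FPKM, and POLA1 and the helicase subunit MCM2 rose 1.31- and 1.27-fold. CDC45, a replication fork helicase factor, fell from 60.9 ± 4.15 to 39.3 ± 0.934 FPKM. The summed FPKM of the 20 genes was 1676, 1867 and 1750 in shCtrl and 1738, 1741 and 1738 in shCAVIN1, so the groups overlapped. In TPM 3 rose and 0 fell and the median was 0.07, with the calls of MCM2 (0.47 in TPM, 0.34 in FPKM) and CDC45 (-0.50 and -0.62) lost.

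Of 14 transcription factors known to act on D cyclin genes, 3 rose (FOSL1, NFKB1 and STAT3) and 5 fell (MYC, JUN, CREB1, STAT5B and RELA), with a median of -0.10. FOSL1, an AP-1 subunit, rose from 21.2 ± 0.278 to 29.5 ± 2.14 FPKM and NFKB1 from 7.11 ± 0.206 to 10.4 ± 0.223 FPKM. CREB1 and STAT5B fell to 70.0% and 79.0% of control. In TPM 2 rose and 0 fell and the median was 0.03, with the calls of CREB1 (-0.38 in TPM, -0.49 in FPKM) and STAT5B (-0.21 and -0.33) lost.

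Of 15 regulators of the INK4/ARF locus and of CDKN1B, 5 rose (TBX2, FOXO1, ID1, CBX7 and EZH2) and 5 fell (ETS2, FOXO3, FOXO4, BMI1 and DMTF1), with a median of -0.06 that turned to 0.02 without shCtrl replicate 3. TBX2, a repressor of the locus, rose from 1.92 ± 0.128 to 5.10 ± 0.359 FPKM, and ETS2, an activator of p16, fell from 16.3 ± 0.611 to 8.27 ± 0.507 FPKM. The forkhead factors FOXO3 and FOXO4, activators of CDKN1B, fell to 62.0% and 70.9% of control, beside a CDKN1B level that did not pass the test. In TPM 4 rose and 2 fell and the median was 0.06, with the call of FOXO4 lost at -0.34 (-0.45 in FPKM).

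The genes around the members were compared with them, taking the 5 nearest protein-coding genes on each side in GENCODE 29. Of 90 distinct neighbours, 57 were tested, and 13 rose and 21 fell, with a median of -0.11, beside 27.3% of all tested genes that rose and 28.2% that fell. Around CCND2, 4 of 6 tested neighbours fell, with log2 differences no lower than -0.56 (PARP11), and TIGAR, the next tested gene after CCND2 on the chromosome, was at 5.59 ± 0.501 and 5.32 ± 0.254 FPKM. Around CDK6, 4 of 7 fell, the lowest at -0.52 (RBM48 and VPS50), and 1 rose, SAMD9L (0.45). So no tested protein-coding neighbour of CCND2 or CDK6 had a fall as large as theirs, while the non-coding AC002454.1 opposite CDK6 had a larger one than CDK6 (-1.93). On the log2(FPKM + 0.5) scale 2 of the 57 changed at least 2-fold: AGAP2 near CDK4 fell (1.28 ± 0.118 to 0.194 ± 0.0383 FPKM) and C1orf185 next to CDKN2C rose (0.405 ± 0.0566 to 1.55 ± 0.162 FPKM). In mean FPKM, ELAVL2 near CDKN2B (0.878 to 0.214) and CYP27B1 near CDK4 (1.51 to 0.736) also fell at least 2-fold. AGAP2, C1orf185, ELAVL2 and AC002454.1 each had a group mean below 0.5 FPKM, as did CCND2. Each thus passed the filter on low values through its higher group.

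**Figure D5:**
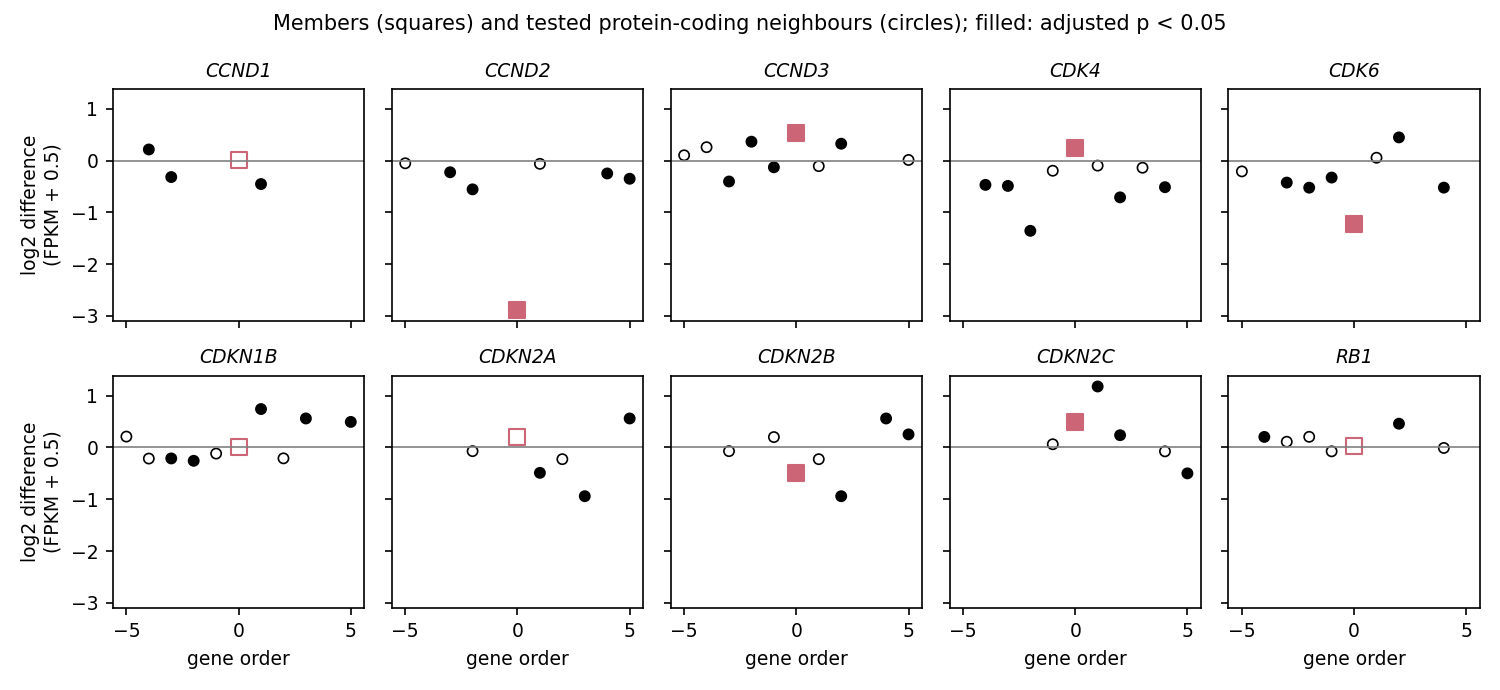
Log2 difference (shCAVIN1 minus shCtrl, FPKM + 0.5) of each member (square, at 0) and its tested protein-coding neighbours (circles) by gene order on the chromosome, filled where the adjusted p is under 0.05. The CCND2 square at -2.89 lies far below its neighbours, none of which is under -0.56.

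The genes whose pattern over the 6 libraries was most like that of CCND2, by Pearson r on log2(FPKM + 0.5) among 12743 genes with a mean of at least 1 FPKM, were PGAP2, SECISBP2L, BCAT1, SLFN13 and CWF19L2, each with r over 0.999. BCAT1, the cytosolic branched-chain aminotransferase, was at 39.8 ± 0.504 and 19.2 ± 0.388 FPKM, and SLFN13 at 7.34 ± 0.422 and 1.01 ± 0.146 FPKM. As many as 453 genes had an r of at least 0.99, since any gene with a steady step between the groups has nearly this pattern. The points share libraries and scaling.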

How the data were processed

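RNA was measured in 6 libraries of WPMY-1 cells, and the authors deposited 1 table of FPKM values with 1 column per library and gene symbols as rows. The submitters' processing notes name GRCh38 as the build, with CASAVA, bcl2fastq 2.17.1.14, TopHat2 (given as 2.2.5) and TopHat as tools. Which program and annotation gave the FPKM, and whether strand was used, is not given in the sources used here. FPKM divides by mapped fragments, so a few abundant RNAs can lower all other values. The 10 most abundant rows held 21.1 to 42.6% of a library's summed FPKM, which is not a share of its fragments. Scaling factors from the median ratio of each library to the geometric mean of the libraries were 0.998 to 1.01. The median ratio was thus nearly the same in all 6 libraries, which does not mean that single genes were unchanged. Fragment counts were not recovered, so depth is unknown and counting error has no interval. As an estimate, the most common ratio between values under 0.02 FPKM gave depths of 0.71 to 1.12 relative to shCtrl replicate 2, but only 16 to 37 genes shared that ratio.

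Groups and replicate numbers came from the sample titles. Genes with a mean of at least 0.5 FPKM (13941) were fitted with limma 3.58.1 in R 4.3.3 on log2(FPKM + 0.5), with group as the only term and trended variances, checked on simulated data. Fold changes in the text are ratios of mean FPKM. Named were all members, up to 4 genes per list with the lowest adjusted p, the 5 genes most like the called member with the largest log2 difference, and neighbours changed at least 2-fold. The members and lists were chosen with earlier results of these data known. One cell type marker of the lists is not reported here and was left out of the counts and sums. Positions are from GENCODE 29 (GRCh38), older symbols from RefSeq synonyms. Alternatives were other pseudocounts, filters, scalings and variances, leaving out each library, and a replicate block.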

Additional observations from a re-analysis of the deposited data

How the results depend on the processing

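Under 16 alternatives the 6 members past the threshold kept their direction in all 96 values and stayed past it in 94, the exceptions being CDK4 (0.36) and CDKN2B (-0.38) after rescaling to TPM. CDKN2A passed under 5 alternatives, and its log2 difference ranged from 0.15 to 0.32 over all 16. Rescaling to TPM cut the genes changed over the whole table from 7734 to 3496 and those of the pathway lists from 63 to 23, and raised the share of higher genes among those changed from 49.2% to 64.5%, with 4 members past the threshold. The cause was not tested. With the 16 most abundant rows left out of the sum, a setting chosen after seeing the data, the counts were 8252 and 63, with 7 members past the threshold. Leaving out each library gave 6227 to 8511 genes, 6 to 7 members and 54 to 69 list genes. With the replicate number as a block, 7167 genes, 6 members and 60 list genes passed, and no member's call changed. Same-numbered libraries did not deviate together (correlations of 0.0936, 0.0714 and -0.0282), and 3 of 6 libraries correlated best with their own number, so the numbers were not taken as pairs. Depth is unknown, which limits low values such as CCND2 in shCAVIN1 most.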

Other observations

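TFDP1, the gene of the pathway lists with the largest rise, lies near the end of chromosome 13 at 113584721 to 113641470, and CUL4A from the turnover list lies on the same stretch at 113208193 to 113267108. Of 14 tested protein-coding genes within 1 Mb of TFDP1, a span chosen after these values were seen, 13 rose and 0 fell, beside 27.3% of all tested genes that rose. The median log2 difference of the 14 was 0.70. Both figures include TFDP1 and CUL4A, the risen genes that led to this stretch, so they partly reflect that choice. The highest after TFDP1 was GAS6, the ligand of the TAM receptors, from 41.2 to 80.1 FPKM, followed by PCID2, from 24.5 to 45.3 FPKM. The lysosomal membrane protein LAMP1 went from 57.4 to 98.5 FPKM. The exception was TMEM255B (-0.09), at under 1 FPKM in both groups. RB1, on the same chromosome at 48303726, did not pass the test.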
